A study of Solanum lycopersicum with 8 samples.

Results

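AOX1a is a tomato gene for an alternative oxidase, and it was measured by 3 of the 33750 non-control probes of the array, all of those whose transcript accession belongs to it. It is 1 of 1214 genes that probes could be matched to, and it was picked on its low signal in ripe fruit of the accession TM, so its level in that fruit is described here without a test. The study took RNA from mature leaves and red ripe fruits of 4 tomato accessions, with a single array for every accession and tissue. The labels place the collection of AV at RTGR, Hyderabad, of TM in Kashmir, and of SK and RJ in Chatha and Rajouri of Jammu province, and describe the accessions as unlike in maturity progress and in carotenoids of the ripe fruit. No treatment is given, the material was whole leaf or whole fruit, and nothing in the labels tells a pool of plants from a single plant. The p-values below measure the spread between these arrays, which may be technical.

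Alternative oxidase sits in the inner membrane of plant mitochondria. It takes electrons from ubiquinol and reduces oxygen to water, bypassing complexes III and IV, so that part of the energy is released as heat in place of being stored as a proton gradient. Tomato fruit is climacteric: ripening comes with a burst of ethylene and of respiration, and alternative oxidase has been studied in that setting. AOX1a belongs to a small gene family. Of the other members looked for, AOX1b, AOX1c and AOX2, no probe was matched here, and cross-hybridisation between members was not tested.

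Signals were read from 1 spot per probe and array, with the error that the scanner software gives each spot. In fruit, probe A_96_P174889 gave a processed signal of 5849 ± 593 in AV, 843 ± 106 in TM, 7335 ± 741 in SK and 7407 ± 748 in RJ. Its leaf signals were 4592 ± 509 in AV, 4336 ± 458 in TM, 950 ± 398 in SK and 5208 ± 540 in RJ. TM fruit was thus the dim array of the fruits and SK leaf that of the leaves, while the other 6 arrays lay within 4336 to 7407.

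Probe A_96_P013991 gave fruit signals of 5773 ± 582 in AV, 763 ± 90.9 in TM, 7121 ± 717 in SK and 5108 ± 517 in RJ. In leaf its signals were 4707 ± 503 in AV, 851 ± 146 in TM, 1002 ± 346 in SK and 1004 ± 151 in RJ. TM was again the dim fruit, but here 3 of the 4 leaves were dim and AV leaf stood above them.

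The dimmest probe, A_96_P164746, gave 1022 ± 131 in AV fruit, 165 ± 57.0 in TM fruit, 1253 ± 154 in SK fruit and 1616 ± 184 in RJ fruit. Its leaf signals were 548 ± 176 in AV, 806 ± 139 in TM, 310 ± 313 in SK and 940 ± 154 in RJ. TM fruit was the lowest of the 4 fruits on each of the 3 probes. The signals of TM fruit, AV leaf and SK leaf on this probe, and those of SK leaf on both other probes, were not well above background. SK leaf had the highest background limit of the 8 arrays: the lowest signal well above background was 1520 there, against 241 in TM fruit and between 359 and 842 on the other 6 arrays.

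**Figure D1:**
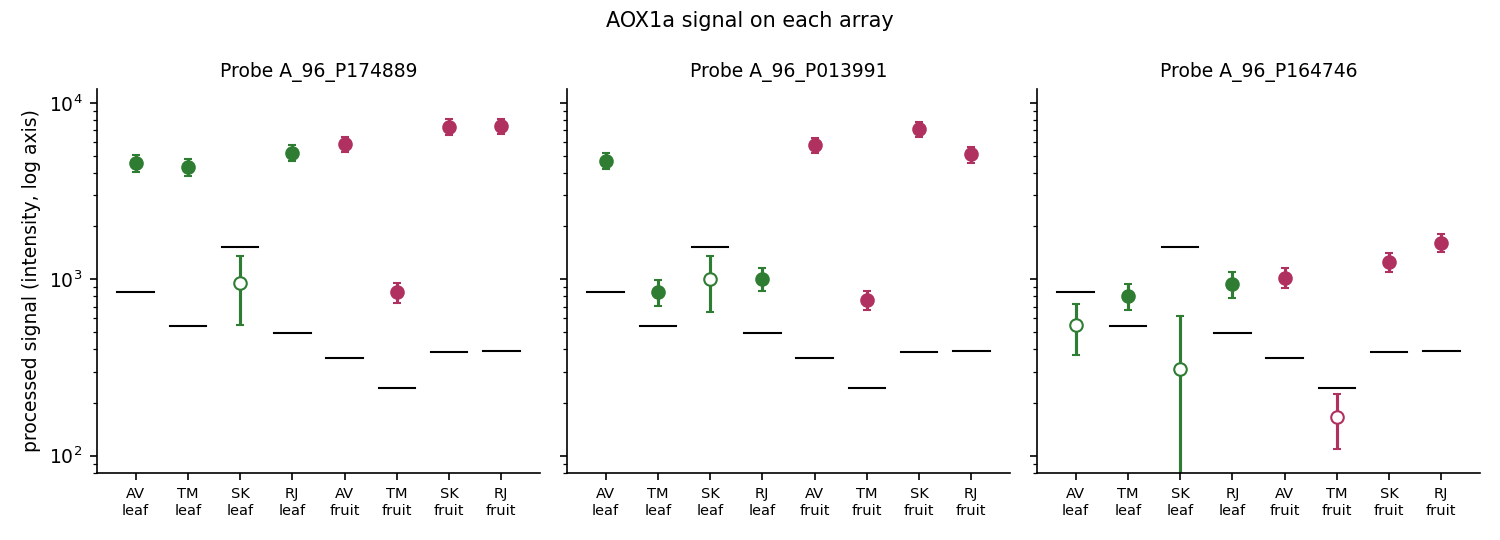
Processed signal (intensity, log axis) of the 3 AOX1a probes on the 4 leaf (green) and 4 fruit (red) arrays, with the spot error of the scanner software as bars; open circles are signals not well above background, and black lines mark the lowest signal well above background on that array. TM fruit lies below the other fruits on all 3 probes, at 843, 763 and 165.

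To compare arrays, log2 signals were set against each array's 75th percentile, and such a scaled level of 0 means a signal equal to that percentile. Averaged over the 3 probes, the AOX1a level in fruit was -0.35 in AV, -2.72 in TM, -0.16 in SK and -0.23 in RJ. The AV, SK and RJ fruits lay within 0.19 of each other, at -0.25 ± 0.096 (mean ± SD, n = 3), and TM fruit differed from their mean by -2.47 on the log2 scale. Single probes spread more over these 3 fruits than the mean of the probes did. Their SD was 0.26 on A_96_P013991, 0.26 on A_96_P164746 and 0.11 on A_96_P174889. By probe the TM difference was -2.51 for A_96_P174889 and -2.46 for A_96_P013991, a 5.71-fold and a 5.49-fold lower signal. For A_96_P164746, whose TM signal was not well above background, TM fruit was at least 3.73-fold lower and the measured difference was -2.44. Against AV fruit, which shared its slide, TM fruit was 5.21-fold and 5.68-fold lower on A_96_P174889 and A_96_P013991. In whole tissue, fewer cells that express a gene and less RNA per cell cannot be told apart.

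Among 314 named genes with a fruit value, AOX1a was the 14th from the low end in TM fruit minus the mean of the other fruits. TM fruit was at least 2 log2 units below that mean for 4.46% of these genes, and below all 3 other fruits for 40.1% (above all 3 for 23.6%). The next genes below AOX1a were RSI-1 at -3.11, the ethylene-forming enzyme EFE at -2.98 and the transcription factor gene WRKY41 at -2.53, whose TM signal was not well above background. The next above were PGH1 (-1.90), which encodes an enolase of glycolysis, the MADS-box ripening regulator RIN (-1.78) and adc1 (-1.78), for the arginine decarboxylase of polyamine synthesis. RSI-1 differed widely among the other fruits as well, at 1.47 in AV, 0.84 in SK and -2.15 in RJ. In the same order EFE lay at 1.83, 0.49 and -0.24, and WRKY41 at -2.46, -2.72 and -1.94. PGH1 lay at -1.07, -1.53 and -2.60, RIN at 1.32, -0.22 and 0.15, and adc1 at 0.22, -2.11 and -2.64. The mean AOX1a levels of those 3 fruits lay closer together than the levels of any of these genes.

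Whether AOX1a differed between ripe fruit and leaf was asked on the arrays of AV, SK and RJ, without TM. A gene picked as low in TM fruit is low against the other fruits, so the fruit values of AV, SK and RJ are not independent of that choice. The mean level in leaf was -1.96 in AV, -4.39 in SK and -1.89 in RJ, and all 3 fruits lay above all 3 leaves. Fruit lay above leaf by 1.61 in AV and 1.66 in RJ. The measured difference of 4.23 in SK was taken against leaf signals not well above background. AOX1a was higher in fruit by 2.50 ± 0.56 on the log2 scale (SE, 3 accessions, higher in 3 of 3, limma adjusted p = 0.00726). It entered the test through the fruit arrays: with no filter on dim probes the call was lost (adjusted p = 0.0972), and probes well above background on every array gave no AOX1a value. The named genes formed a wide background for this call, since 53.1% of 382 passed the same test, 28.3% higher and 24.9% lower in fruit.

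Each probe passed the test on its own, with leaf signals that were partly at background. A_96_P013991 and A_96_P174889 were well above background on 2 of the 3 leaf arrays, and A_96_P164746 on 1. A_96_P013991 rose by 2.89 ± 0.57 (adjusted p = 0.00284), A_96_P164746 by 2.29 ± 0.51 (adjusted p = 0.00534) and A_96_P174889 by 2.33 ± 0.67 (adjusted p = 0.0191) in limma. For A_96_P164746 the leaf signals allow a bound in AV, where fruit was at least 2.6-fold above leaf, and in SK. Of the 6838 probes tested, 47.2% were called, 24.4% higher and 22.8% lower.

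The size of the difference rests in part on SK leaf, where no AOX1a probe was well above background. SK fruit was at least 15.0-fold above SK leaf on A_96_P174889, at least 14.6-fold on A_96_P013991 and at least 2.56-fold on A_96_P164746. Without SK, AOX1a was higher in fruit by 1.64 ± 0.44 and no longer passed (limma adjusted p = 0.0503). By probe, A_96_P013991 still passed (adjusted p = 0.0452), while A_96_P164746 (adjusted p = 0.0635) and A_96_P174889 (adjusted p = 0.12) did not. Scaling on 3 spike-in probes shifted every fruit minus leaf difference by -1.26 and left AOX1a at 1.24 (adjusted p = 0.0643). That fit gave each listed gene the same SE of 0.59, unlike the main fit. Calls lost by spike-in scaling, here and below, thus differ from the main fit in SE as well as in the shift. Relative to the median difference of all probes tested, AOX1a stood at 2.32, which a shift common to all probes does not alter. Leaf arrays were all on 1 slide and fruit arrays on 2 others, so tissue and slide cannot be told apart.

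In TM the mean of the probes differed little between the tissues, at -2.41 in leaf and -2.72 in fruit. The probes went opposite ways in this accession: fruit minus leaf was 1.14 on A_96_P013991, -0.99 on A_96_P164746 and -1.07 on A_96_P174889. With TM in the fit, AOX1a, then averaged over 2 probes because A_96_P164746 did not pass the filter, differed by 1.97 ± 0.64 (SE, 4 accessions), printed without a p because this fit holds the value that chose the gene.

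**Figure D2:**
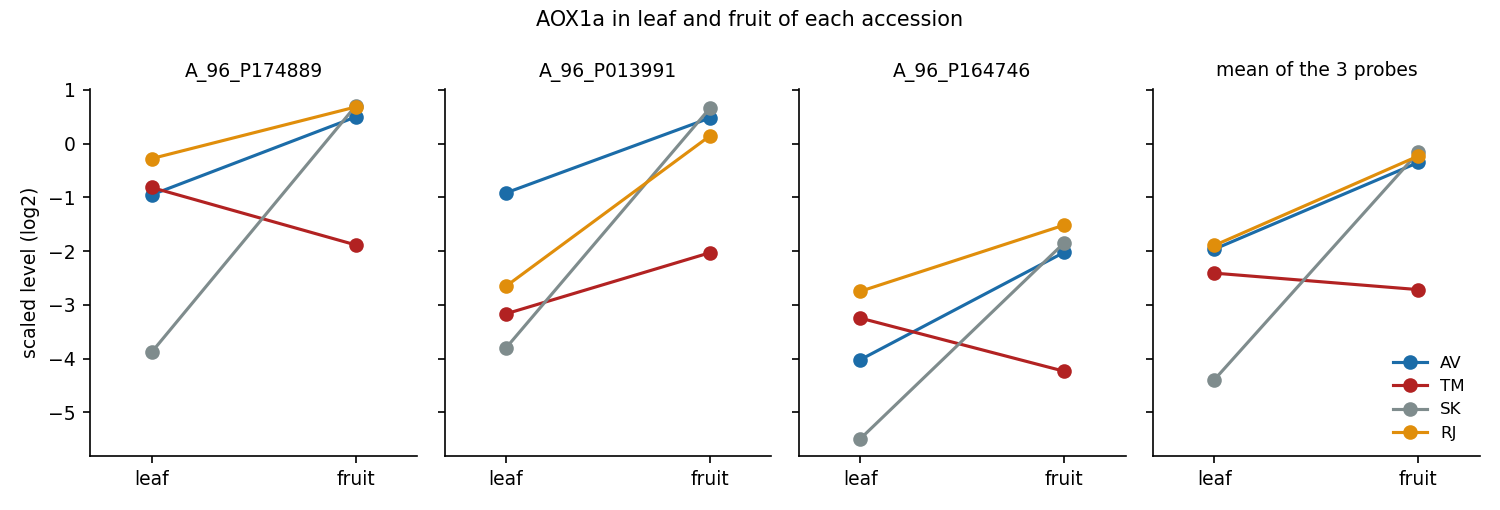
Scaled AOX1a level (log2 signal minus the array's 75th percentile) in leaf and fruit of each accession, for each probe and for the mean of the 3; each point is 1 array, lines join the tissues of an accession, and no SK leaf point was well above background. The lines of AV, SK and RJ rise in every panel, while that of TM rises on A_96_P013991 (1.14) and falls on the other probes (-0.99 and -1.07).

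The order of the 8 mean levels ran from SK fruit (-0.16), RJ fruit (-0.23) and AV fruit (-0.35) through RJ leaf (-1.89), AV leaf (-1.96), TM leaf (-2.41) and TM fruit (-2.72) to SK leaf (-4.39). AV fruit lay above RJ leaf on all 3 probes, by 0.73 to 3.13. The place of SK leaf is a bound, since none of its AOX1a signals was well above background. For the other neighbours the probes disagreed in sign, and their order was within the spread between probes. Over all 4 accessions the leaf mean was -2.66 ± 1.17 and the fruit mean -0.86 ± 1.24 (SD, n = 4), and these ranges overlapped.

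The leaf values depended on the probe. The difference of A_96_P013991 minus A_96_P174889 was -2.35 in TM leaf and -2.37 in RJ leaf, while on the other 6 arrays it lay between -0.54 and 0.08. These probes thus reported unequal changes between arrays: moving from AV leaf to TM leaf, A_96_P174889 went from -0.95 to -0.82 and A_96_P013991 from -0.92 to -3.17. From AV leaf to RJ leaf they went from -0.95 to -0.28 and from -0.92 to -2.65.

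Such a spread between probes of a gene was uncommon on the array. Among 769 pairs of probes of 112 genes, each probe well above background on at least 6 arrays, the difference between probes ranged over a median of 0.548 across the 8 arrays, and 12 pairs (1.56%) ranged as far as the 2.45 of this AOX1a pair. No pair but this one had TM leaf and RJ leaf at least 1 log2 unit apart from the other 6 arrays. That pattern was read off this pair itself, so the search describes it and is no test. In SK leaf, 1 of those 6 arrays, neither probe of the pair was well above background. Across 6834 probes, which are not independent replicates, TM leaf and RJ leaf correlated at r = 0.97, the highest value among leaf arrays (0.83 to 0.97). The other AOX1a pairs ranged over 3.03 and 1.45, where the dim signals of A_96_P164746 enter. In TM leaf and RJ leaf, however, A_96_P164746 was well above background. Its difference from A_96_P174889 was -2.43 and -2.47 there, within the -2.55 to -2.20 of the fruit arrays. On these leaf arrays A_96_P013991 was thus the probe that departed from both others. Why it did so was not tested.

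**Figure D3:**
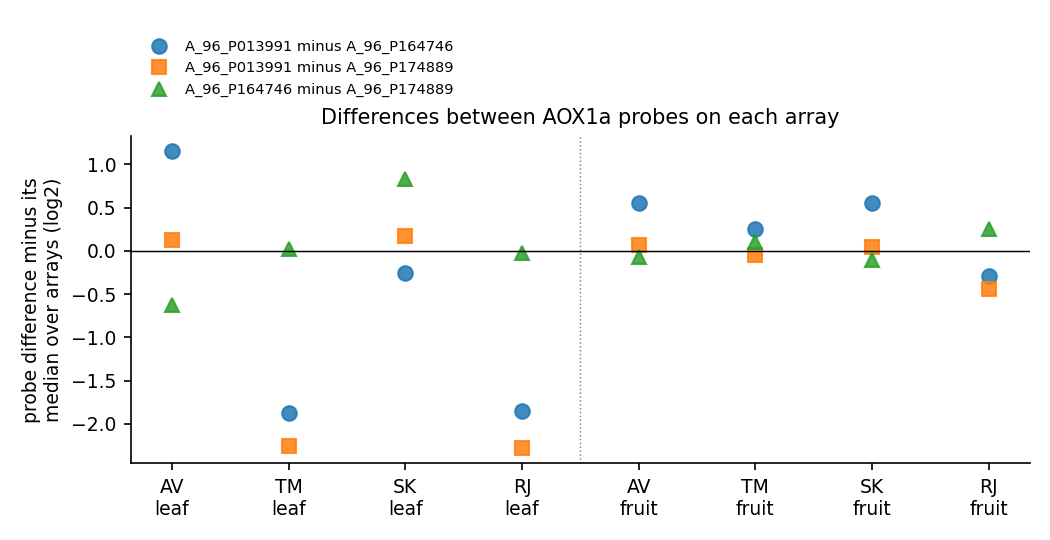
Difference between the scaled levels of 2 AOX1a probes on each array, minus that pair's median over the 8 arrays (log2); each symbol is 1 pair of probes. Both pairs that contain A_96_P013991 drop in TM leaf and RJ leaf, where its difference from A_96_P174889 is -2.35 and -2.37, and the 3 pairs lie closer together on the fruit arrays.

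Other genes of respiration were followed on the same 6 arrays. The list of alternative respiration held 1 more gene with a probe, UCP, an uncoupling protein that lets protons back across the inner mitochondrial membrane. Its level was -3.26, -2.69, -3.13 and -3.07 in the leaves of AV, TM, SK and RJ, and -1.40, -2.89, -1.93 and -2.35 in the fruits. TM fruit lay within the range of the leaves and the other fruits above it. UCP was higher in fruit by 1.26 ± 0.39 in AV, SK and RJ (limma adjusted p = 0.0313), but at -0.0027 by spike-in scaling and, with TM in the fit, at 0.89 ± 0.37 (adjusted p = 0.0746; 61.6% of named genes were called there). The UCP call was also lost without AV (adjusted p = 0.122) and without SK (adjusted p = 0.136). Both genes of the list, AOX1a and UCP, were called higher, where 28.3% of named genes were. Their median was 1.88, against 0.29 over all named genes tested. Since AOX1a is the gene that was picked, UCP is the only other member behind this count and median.

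PTOX, the plastid terminal oxidase, is a plastid relative of alternative oxidase that takes up electrons from carotenoid desaturation. It lay at -2.47 in AV, -4.10 in TM, -2.74 in SK and -3.07 in RJ fruit, so that TM was the low fruit here too, although the TM signal was not well above background. Its leaf levels were -5.63, -3.28, -3.76 and -3.35 in the same order. PTOX did not pass the fruit against leaf test (1.49 ± 0.56, limma adjusted p = 0.0631), nor did the carotenoid desaturase genes PDS (0.49 ± 0.40) and ZDS (0.005 ± 0.35). The PTOX result depended on the setting: without AV, whose leaf was the lowest, the difference was 0.65 (limma adjusted p = 0.297). PTOX was called without RJ (adjusted p = 0.0248), in the authors' deposited table (adjusted p = 0.0379) and with the 75th percentile over all probes (adjusted p = 0.0469).

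Of the cytochrome pathway, ATP synthase and carrier list, 1 gene was on the array, MTSHP, which encodes a mitochondrial small heat shock protein and no respiratory enzyme. It was at least 4.83-fold higher in fruit (log2 difference 4.17). A comparison of AOX1a with the cytochrome pathway could therefore not be made.

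Of 8 tricarboxylic acid cycle and malate genes with a probe, 6 were tested, 1 was higher in fruit and 2 were lower, beside 28.3% and 24.9% of all named genes. Their median was -0.22, against 0.29 over all named genes tested. The malic enzyme gene ME1 rose by 2.03 ± 0.38 (adjusted p = 0.00304 in limma), but by spike-in scaling it stood at 0.77 and was not called (adjusted p = 0.267). Leaf exceeded fruit at least 3.18-fold for the malate dehydrogenase gene mdh and at least 6.52-fold for gMDH, the form of microbodies. Neither ICDH1, an isocitrate dehydrogenase gene (0.90 ± 0.38), nor the mitochondrial malate dehydrogenase gene mMDH1 (-0.24 ± 0.36) passed.

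Genes that remove reactive oxygen, which alternative oxidase is known to limit at its source, included calls in both directions. Of 17 with a probe, 12 were tested, 4 were higher and 5 lower in fruit, with a median of -0.74, beside 28.3% and 24.9% of all named genes. Of the 4, spike-in scaling left gst called, while SODCC.1 (0.80, adjusted p = 0.244), GPXle-1 (1.05, adjusted p = 0.124) and the ascorbate peroxidase gene APX6 (-0.15) were not. The glutathione S-transferase gene gst was at least 6.61-fold higher and the superoxide dismutase gene SODCC.1 rose by 2.06 ± 0.36 (limma adjusted p = 0.00201). The catalase gene CAT2 was at least 5.44-fold lower, a call lost by normexp correction (adjusted p = 0.0578) and with no filter (adjusted p = 0.134). DHAR1, a dehydroascorbate reductase gene, fell by 2.14 ± 0.36 (limma adjusted p = 0.00168). GPXle-1, for a glutathione peroxidase, was at least 2.70-fold higher and was not called without SK (adjusted p = 0.0598).

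All tested genes had passed a filter on low signals that a gene could enter through the tissue where it was high, so these counts describe the lists and support no statement beyond them. TM fruit was the lowest fruit for UCP and for 1 of 3 plastid oxidase and desaturation genes. It was also the lowest for 2 of 4 tricarboxylic acid cycle and malate genes and 2 of 9 reactive oxygen genes, beside 40.1% of named genes.

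**Figure D4:**
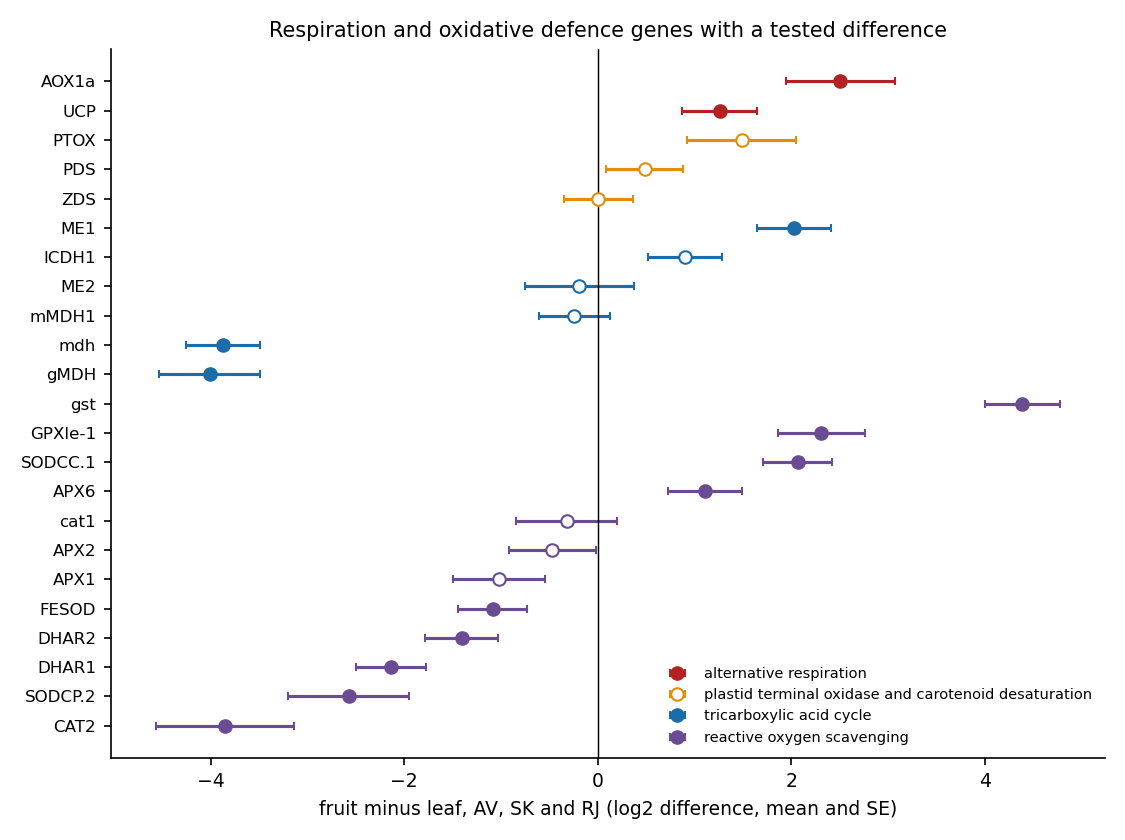
Fruit minus leaf (log2 difference, mean and SE over AV, SK and RJ) for AOX1a and the tested genes of 4 lists, coloured by list; filled circles passed an adjusted p of 0.05 in limma. AOX1a and UCP lie to the right of 0, while tricarboxylic acid cycle and malate genes and genes of reactive oxygen scavenging lie on both sides.

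The tissue labels were checked against marker genes. All 6 ripe fruit markers were higher in fruit: their summed signal was 27.2 to 74.1 times the 75th percentile on fruit arrays and 0.121 to 0.199 times on leaf arrays. The 5 leaf markers with a probe summed to 13.8 to 21.2 on leaf arrays and 0.254 to 0.432 on fruit arrays, and all 5 were lower in fruit. One ripe fruit marker departed from its label: PG2, the polygalacturonase that softens ripe fruit, was not well above background on any of its 6 probes in TM fruit (-5.88), against 4.18 in AV, 0.90 in SK and 2.36 in RJ fruit.

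Neither trichome marker gene passed the filter, and the summed trichome level was 0.035 to 0.039 on fruit and 0.032 to 0.060 on leaf arrays. The seed marker LEA14 did not pass the tissue test, with 0.69 to 0.97 in fruit and 0.18 in AV, 2.41 in TM, 0.82 in SK and 2.22 in RJ leaf. Markers of dividing cells summed to 0.35 to 0.45 in fruit, with TM inside that range. Their part in the AOX1a values was not tested.

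A part of the ripening genes was low in TM fruit as well. All 18 climacteric ripening genes with a probe were called higher in fruit than in leaf in AV, SK and RJ, beside 28.3% of named genes tested. Their median was 4.95, against 0.29 over those named genes. Only ACO1 and Cel2 kept a value where every array of the fit had to be well above background. The others entered the test through fruit, and some, such as ACS2 and 2A11, were not well above background on any leaf array. The count of calls higher in fruit therefore follows in large part from the filter. Of the 18, 10 were lowest in TM among the fruits (40.1% of named genes were). The 5 with the lowest adjusted p were the fruit protein gene 2A11 (fruit at least 221-fold above leaf), ADH2 (at least 107-fold), LOXB, a lipoxygenase gene (at least 14.4-fold), the expansin gene EXP1 (at least 8.30-fold) and Psy1, the phytoene synthase of fruit carotenoids (6.38 ± 0.41 on the log2 scale). ACO1, an ACC oxidase of ethylene synthesis, lay at 2.25 in AV, -2.52 in TM, 0.99 in SK and 0.11 in RJ fruit, and its tissue call was lost without SK (adjusted p = 0.0529). RIN lay at 1.32, -1.37, -0.22 and 0.15 in the same order. TM fruit was the lowest and AV fruit the highest for both.

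The low values of TM fruit did not cover the whole list. TM fruit lay below the mean of the other fruits by 1.39 for the MADS-box gene FUL1 and by 1.32 for the regulator NOR, but above it by 0.57 for EXP1, 0.60 for ADH2, an alcohol dehydrogenase of aroma formation, and 0.98 for the endoglucanase gene Cel2. The summed ripe fruit markers of TM (32.05) lay within the range of the other fruits. That sum was led by 2A11 and ADH2, at 3.86 and 3.91 on the log2 scale in TM fruit, and PG2 added almost nothing. Gene by gene, TM fruit was the lowest for 3 of the 6 markers, beside 40.1% of named genes. The median difference of the 6 markers from the other fruits was -0.62. Whether these differences have a part in the AOX1a level was not tested.

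The genes whose profiles over the 8 arrays were nearest to AOX1a, by Euclidean distance between centred log2 levels among 392 named genes, were the sucrose synthase gene sus3 (1.43), the protein kinase gene SRK2C (1.63), ail (1.70), the formate dehydrogenase gene FDH (1.75), EFE (2.10), SPS (2.17), ACO1 (2.24) and BL2 (2.25). All share the arrays with AOX1a, TM fruit included, and the lowest measured leaf value of each was in SK leaf, where the background limit was highest. The fruit levels of sus3 were -1.15 in AV, -2.35 in TM, -1.20 in SK and -1.63 in RJ, with leaves at -3.16, -3.31, -5.17 and -3.02. SRK2C was at -2.82, -4.54, -3.02 and -2.96 in fruit and was not well above background in TM fruit or on any leaf array.

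In TM fruit these genes parted: relative to the other fruits sus3 was at -1.02, ail at -1.60 and FDH at -0.77, nearer to the other fruits than the AOX1a probes above background there (-2.46 and -2.51), while EFE (-2.98) and ACO1 (-3.64) lay further away. Leaving out SK leaf kept 4 of the 8 genes among the nearest, and normexp background correction kept 6.

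**Figure D5:**
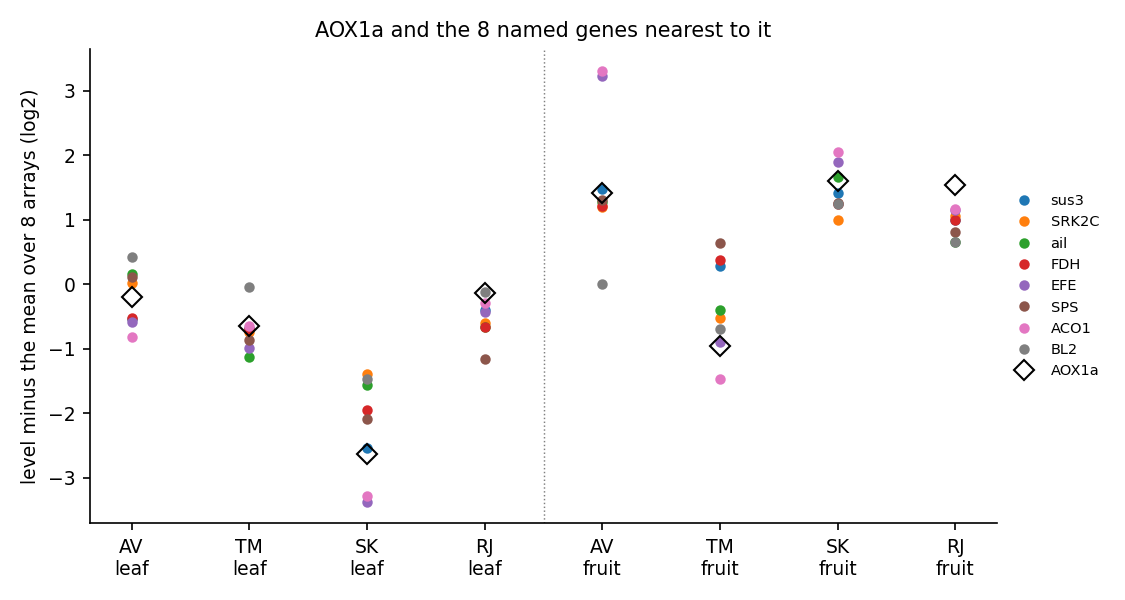
Levels of AOX1a (open diamonds) and of the 8 nearest named genes (dots) on each array, each minus its own mean over the 8 arrays (log2). SK leaf is low for all 9 genes; in TM fruit AOX1a lies beside EFE, below sus3 and above ACO1.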

How the data were processed

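RNA of 4 leaf and 4 fruit samples was labelled with Cy3 and hybridised to 1-colour Agilent arrays, per the labels. Each deposited scanner file gives the intensity of its spots, as read by Agilent Feature Extraction (version 10.7.3.1 in the file headers), with flags for outlier spots, saturation and signal well above background. The authors also deposited a log2 table: 99.2% of its probes matched log2 processed signals in differences between arrays within 0.02, up to 1 constant per array. Its array medians lay between -0.07 and 0, and the constant taken from each probe is unknown.

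Outlier spots were dropped, and each array's 75th percentile, over the 3085 probes flagged above background on 8 of 8 arrays, was subtracted from log2 signals. The share of probes so flagged was 17.2% to 24.4% per array, and saturation was absent. Precision is limited by the number of arrays. Probes that the array design labels as controls were left out. Probes were named through RefSeq accessions (assembly SLM_r2.1, for names only): 2936 of 3132 matched, to 1214 genes. Probes of a gene were averaged after the filter.

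The tissue test used lmFit and eBayes of limma 3.58.1 (R 4.3.3) on AV, SK and RJ, with accession as a block and 2 residual degrees of freedom. A probe entered if well above background on all 3 arrays of a tissue, and calls had a Benjamini-Hochberg adjusted p under 0.05. TM was left out because its fruit value chose the gene, and a fit with TM is an alternative. The block follows the accession labels. Deviations of leaf and fruit of an accession correlated at -0.14 in AV, 0.02 in SK and -0.26 in RJ over 3192 probes. A bound ("at least") sets the brighter mean against the dim signal or, where higher, that array's lowest signal flagged above background. The fit was tested on simulated data.

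The gene and the lists were chosen with earlier results of these data known. Lists given by words were turned into symbols by hand, since the reference used has no descriptions. Named genes are AOX1a, all measured genes of the first 2 respiration lists, up to 5 of each other list by adjusted p, the 8 nearest profiles and 3 neighbours on each side in the TM order. PG2, FUL1, NOR and Cel2, members of the ripening list, were named after their values were seen. Alternatives changed the background correction (normexp, offset 50, on median signals), the scaling, the values used, the filter, the block, the slide, the accessions, the prior and the probe.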

Additional observations from a re-analysis of the deposited data

Results flagged for a closer look

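Each group of 4 arrays was checked for 1 array far from the other 3, by the gap to the nearest array over the whole range, against Dixon's 95% critical value. The fruit levels of AOX1a and genes named only for likeness to it were left out, because TM fruit values entered their choice. EFE and ACO1, also near AOX1a in profile, were checked as members of the ripening list, and neither passed. Of the 84 groups checked, for AOX1a in leaf and for the listed genes, 4 passed, where chance gives about 5%. AV leaf stood apart for gMDH at 0.5281 and for the ascorbate peroxidase gene APX1 at 0.3742 (log2 level). SK leaf stood apart for the plastid superoxide dismutase gene SODCP.2 at -0.8491, and TM fruit for the lipoxygenase gene LOXB at -0.4983.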

How the results depend on the processing

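The fruit minus leaf difference of AOX1a kept its direction in the 15 settings that gave a value (1.24 to 2.95) and passed the test in 12 of them. Those 12 include every fit with TM: with the accession block, without it, and with slide as a random block. The p of the fits with TM is not independent of the choice of the gene, so these passes add no support. AOX1a did not pass with spike-in scaling (1.24), with no filter (2.50 over 23685 targets, adjusted p = 0.0972) and without SK (leaving out 1 accession gave 1.64 to 2.95). The fit without the accession block kept the call (no replicate block: 2.50, adjusted p = 0.0139). AOX1a has no value where every array had to be well above background. That filter called 626 of 3192 probes, 46 of 179 named genes and 6 of 13 list genes, against 3226, 203 and 31. Slide as a random block could not be fitted on the 6 arrays. With TM included, an alternative chosen after seeing the data, it gave 1.97. TM fruit minus the other fruits was -2.32 by median scaling, -2.35 by quantile normalization, -2.67 by spike-ins, -2.02 by normexp and -2.30 in the authors' deposited table, and -2.52 to -2.43 when 1 other fruit was left out. Spike-in scaling, whose fit gave each listed gene the same SE, lowered the share of called probes that were higher in fruit from 51.6% to 20.1%. It turned UCP (-0.0027), PDS (-0.78), ZDS (-1.26), ICDH1 (-0.36) and APX6 (-0.15). Other reversals were in ME2 (0.011 by the 75th percentile over all probes, -0.79 to 0.66 on leaving out 1 accession), ZDS (-0.016 by median scaling, -0.038 in each fit of all 4 accessions, -0.0037 to 0.011 on leaving out 1 accession), APX6 (-0.69 without a filter) and cat1 (-0.99 to 0.33 on leaving out 1 accession). Their cause was not tested. Among the values of single genes and probes under each setting, 41 lost a call, 16 gained one and 575 kept their direction and side of the threshold, uncalled ones included. Signal over background limits SK leaf most.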
